A study of Mus musculus with 22 samples.

Results

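Open chromatin was compared between mouse macrophages given lactic acid alone (LA) and control macrophages given neither LA nor lipopolysaccharide, in 6 ATAC-seq samples, 3 a group, of the 22 samples of the study. They were taken by their labels, and the group was never read from the values. The cells were bone marrow-derived macrophages of C57/BL6 mice, differentiated for 7 days in medium with L929 supernatant, and all groups shared this culture. LA cells were treated for 3 h. The labels state a dose of 10 mM for LA given with 100 ng/ml lipopolysaccharide (LPS), and no dose for LA alone. The study's LPS+LA and LPS samples, 3 of each, whose peaks helped to set the bounds of sites but not the gained or lost pattern, were used to look at the same sites again. RNA-seq libraries of LA and control cells, 2 of each, were set beside the sites. The labels do not say whether samples of a group came from separate animals or cultures, so the p-values below measure only the spread between these samples.

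ATAC-seq marks DNA that a transposase can reach, and a peak is a stretch where its cuts pile up. Such stretches are promoters, at gene starts, and enhancers, which lie within or between genes and are bound by sequence-specific factors. In macrophages the factor PU.1 sets the basic pattern of open enhancers, and signal-dependent factors open others; among these is AP-1, a pair of FOS and JUN family proteins that binds TGANTCA, where N is any base. Lactic acid is released by cells with active glycolysis and reaches macrophages as lactate with a proton.

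Of 8 macrophage markers, 4 had an entry in the RefSeq promoter table (Itgam, Mertk, Cd68 and Lyz2), and each had a peak at its gene start in all 6 samples. The T cell genes Cd3e, Cd3g and Lck, the granulocyte genes Mpo, Elane and Ltf and the fibroblast gene Col1a2 had none at their starts in any sample, and the B cell gene Pax5 had one in control replicate 1 only. Some starts of other lineages had a peak in all 6 samples alike, among them the neuronal genes Syn1 and Tubb3, Klf1, Kdr and Ly6g. Per the file headers, the LA and LPS+LA samples were sequenced on lane 6 of the flow cell and the control and LPS samples on lane 5. The lane and LA therefore cannot be told apart in any value below.

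Promoters under sites that appeared with LA are shown first, since many of them held the AP-1 letters. Promoter windows ran from 250 bases before to 50 bases after each RefSeq gene start and are given 5′ to 3′ on the strand of the gene, in GRCm38.p6. The first 5 windows overlapped a site that had a peak in all 3 LA samples and in no control sample, and capitals mark the AP-1 letters. They belong to Olr1 (chr6:129507116-129507415, minus strand), which encodes a receptor for oxidised low-density lipoprotein, Cd80 (chr16:38458683-38458982, plus strand), a costimulatory ligand for T cells, Atp6v0a1 (chr11:101010148-101010447, plus strand), a subunit of the proton pump of lysosomes, Sucnr1 (chr3:60081619-60081918, plus strand), the succinate receptor, and Cgref1 (chr5:30945431-30945730, minus strand).
Olr1: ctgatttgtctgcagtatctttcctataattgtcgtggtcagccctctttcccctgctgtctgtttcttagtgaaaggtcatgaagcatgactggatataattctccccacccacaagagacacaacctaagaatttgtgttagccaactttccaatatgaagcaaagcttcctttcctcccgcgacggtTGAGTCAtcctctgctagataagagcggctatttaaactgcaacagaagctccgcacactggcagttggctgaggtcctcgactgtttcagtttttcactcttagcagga
Cd80: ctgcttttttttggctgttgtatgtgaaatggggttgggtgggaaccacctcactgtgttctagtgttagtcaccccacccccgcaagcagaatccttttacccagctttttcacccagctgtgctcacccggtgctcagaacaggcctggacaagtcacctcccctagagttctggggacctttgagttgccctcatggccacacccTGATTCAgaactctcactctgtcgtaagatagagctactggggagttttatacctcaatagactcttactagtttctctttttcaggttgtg
Atp6v0a1: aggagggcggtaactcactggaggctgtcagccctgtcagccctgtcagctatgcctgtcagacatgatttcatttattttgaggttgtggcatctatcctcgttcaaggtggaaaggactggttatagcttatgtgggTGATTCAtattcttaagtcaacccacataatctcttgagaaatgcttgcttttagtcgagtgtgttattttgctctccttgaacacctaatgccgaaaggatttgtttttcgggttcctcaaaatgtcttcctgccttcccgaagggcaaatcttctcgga
Sucnr1: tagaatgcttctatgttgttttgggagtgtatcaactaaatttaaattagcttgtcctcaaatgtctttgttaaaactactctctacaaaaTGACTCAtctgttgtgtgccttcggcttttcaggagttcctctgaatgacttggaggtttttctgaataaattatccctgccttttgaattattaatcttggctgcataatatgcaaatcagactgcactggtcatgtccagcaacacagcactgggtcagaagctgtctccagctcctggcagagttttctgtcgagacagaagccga
Cgref1: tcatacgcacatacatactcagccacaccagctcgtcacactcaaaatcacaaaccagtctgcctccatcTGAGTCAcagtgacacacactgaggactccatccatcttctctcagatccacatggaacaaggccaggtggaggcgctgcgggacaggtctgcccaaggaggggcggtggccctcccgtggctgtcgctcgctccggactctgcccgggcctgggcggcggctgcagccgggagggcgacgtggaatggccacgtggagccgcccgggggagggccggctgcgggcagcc
For contrast, the window of Utrn (chr10:12861686-12861985, minus strand), the gene of the cytoskeletal protein utrophin, overlapped such a site and did not hold the letters.
Utrn: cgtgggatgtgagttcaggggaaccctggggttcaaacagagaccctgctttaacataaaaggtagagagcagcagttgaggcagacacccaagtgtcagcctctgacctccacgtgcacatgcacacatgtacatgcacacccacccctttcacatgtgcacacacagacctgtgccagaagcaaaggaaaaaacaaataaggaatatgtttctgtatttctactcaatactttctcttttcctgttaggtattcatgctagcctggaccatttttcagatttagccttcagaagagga
The window of Tgtp2 (chr11:49064163-49064462, minus strand), an interferon-inducible GTPase gene, overlapped a site with a peak in all 3 control samples and in no LA sample. Capitals mark the letters GAAANNGAA of the interferon-stimulated response element.
Tgtp2: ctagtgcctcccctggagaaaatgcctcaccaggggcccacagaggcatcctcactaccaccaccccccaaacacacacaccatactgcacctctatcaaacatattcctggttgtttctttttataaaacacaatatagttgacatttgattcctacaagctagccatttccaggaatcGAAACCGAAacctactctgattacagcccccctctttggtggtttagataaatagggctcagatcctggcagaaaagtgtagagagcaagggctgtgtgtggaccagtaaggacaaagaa
These genes were chosen for print after their values were seen.

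The LA peak lists covered less of the genome than the control lists, and their peaks were narrower. The lists held 76680, 80820 and 78940 peaks in the LA samples, against 86537, 80386 and 86566 in the control samples. The group ranges overlapped, since control replicate 2 lay below LA replicate 2, and the means of 78813 ± 2073 in LA and 84496 ± 3560 in control (SD, n = 3 each) differed with p = 0.2 (exact two-sided permutation test, smallest possible p 0.1). The peaks covered 32.7, 34.1 and 32.6 Mb in LA, against 42.1, 37.0 and 39.7 Mb in control. All 3 LA samples lay below all 3 control samples, and the mean difference was -6.45 Mb (exact permutation p = 0.1). The median peak width was 364, 360 and 350 bp in LA, against 418, 396 and 392 bp in control, again with no overlap (exact permutation p = 0.1). With the 76680 highest-scored peaks of each list the difference in covered bases was -5.00 Mb (exact permutation p = 0.1). Peaks within 1000 bp of a RefSeq gene start made up 17.9%, 17.4% and 17.7% of the LA lists, against 16.6%, 17.5% and 16.7% of the control lists, a difference of 0.743 points (exact permutation p = 0.2). With equal numbers of peaks this difference was 0.158 points (exact permutation p = 0.1). With LPS present, and across the same split of lanes, the covered bases overlapped, at 33.1, 43.3 and 43.7 Mb in LPS+LA and 49.3, 43.0 and 37.0 Mb in LPS. The lists hold no read counts, so the depth behind them is unknown.

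**Figure D1:**
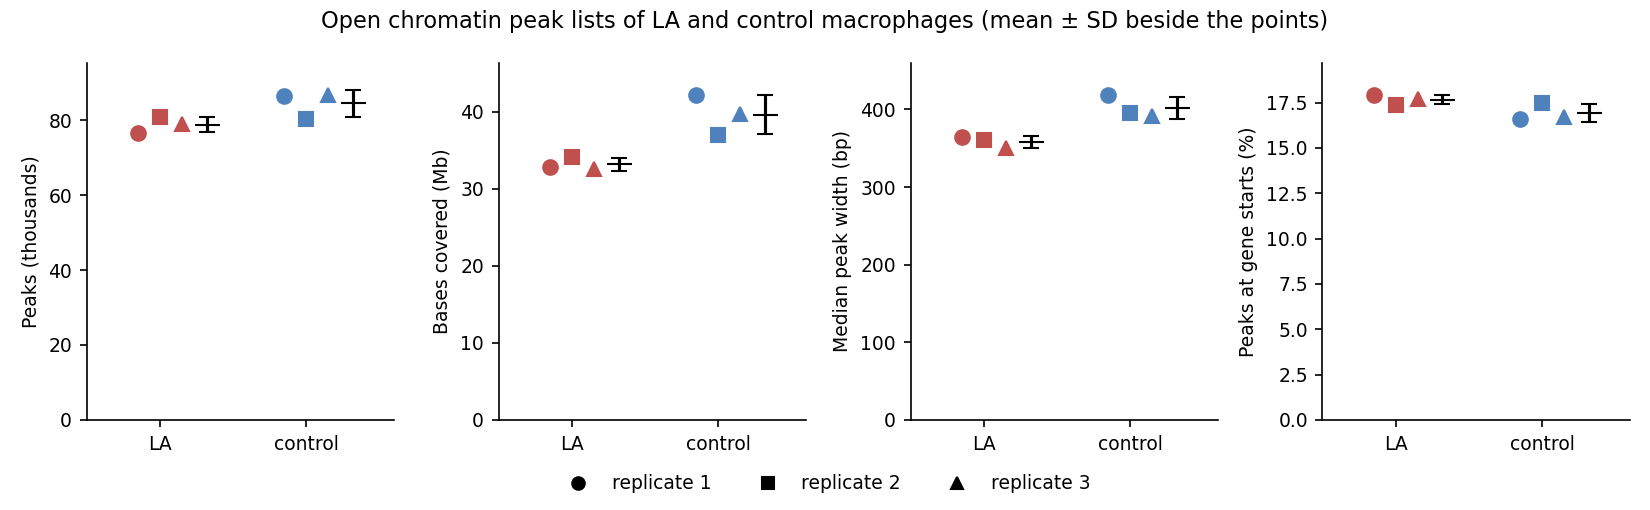
Number of peaks (in units of 1000), bases covered (Mb), median peak width (bp) and share of peaks within 1000 bp of a gene start (%) for each LA and control sample; points are samples, with shapes for the replicate number, and the bar beside them is the mean ± SD (n = 3). Bases covered and median width do not overlap between the groups, while the number of peaks and the share at gene starts do.

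Peaks of all 12 ATAC-seq samples were joined wherever they shared at least 1 bp, which gave 127890 sites, and 99977 of them had a peak in LA or control. Most of these were stable: 61293 had a peak in all 6 samples. Sites gained with LA, with a peak in all 3 LA samples and in no control sample, numbered 1958, which is 1.96% of the 99977. Sites lost with LA, with the reverse pattern, numbered 3040, or 3.04%. This split turned round when each list was held to its 76680 highest-scored peaks, which gave 2528 gained and 1869 lost sites. Of the 1958 gained sites 1776 overlapped a site gained in that count, and of the 3040 lost sites 1518 overlapped a lost one. The excess of lost over gained sites was thus not kept when the lists had equal length. Lost sites also numbered 5323 without control replicate 2, the shortest control list, and 4602 without LA replicate 2, the longest LA list. Sites with a peak in 1 sample only were more frequent than either kind, at 3712 for LA and 7337 for control.

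**Figure D2:**
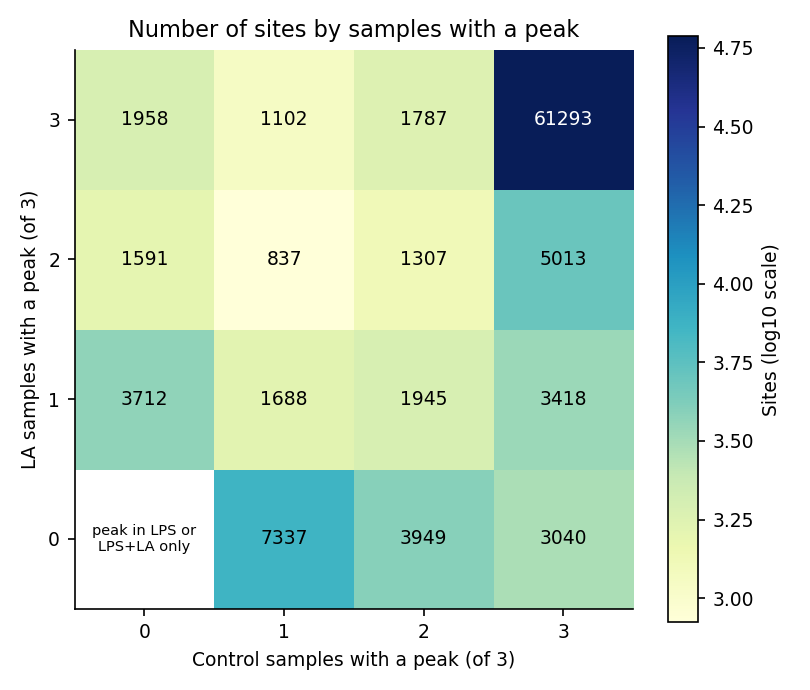
Number of sites by how many LA samples (vertical) and control samples (horizontal) had a peak there, with colour on a log10 scale. The 1958 gained sites are at the upper left, the 3040 lost sites at the lower right and the 61293 sites shared by all 6 samples at the upper right.

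By pairwise overlap, in shared bases over covered bases (Jaccard index), the samples grouped by treatment. LA samples shared 0.780 to 0.782 with each other and control samples 0.785 to 0.802, against 0.678 to 0.729 between an LA and a control sample. Every pair within a group was above every pair between the groups.

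Gained and lost sites were among the weaker peaks of their lists. The score per peak is the authors' own and was used only to rank peaks within a list. Gained sites had a median rank at the 26.1, 26.0 and 24.5 percentile of the LA replicates 1, 2 and 3, and lost sites at the 18.4, 14.01 and 17.5 percentile of the control replicates. Sites shared by all 6 samples had their median rank between the 59.4 and 61.5 percentile in LA and between the 61.6 and 64.4 percentile in control. The strongest gained site reached the 73.5 percentile. Gained sites were 387 bp and lost sites 353 bp wide in median, against 587 bp for shared sites. A site without a peak can still hold reads below the threshold of the peak caller.

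Both kinds of site lay mostly away from gene starts. Of 1898 gained sites on chromosomes with annotated starts, 86 (4.53%) lay within 1000 bp of one, as did 7.12% of lost sites, 19.9% of shared sites and 14.8% of all sites with a peak in LA or control. A further 52.7% of gained sites and 54.4% of lost sites lay inside a gene, against 48.4% of all. The median distance to the nearest start was 20591 bp for gained and 19251 bp for lost sites, against 14077 bp for shared sites.

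Where a gained site did touch a promoter, the AP-1 letters were frequent. Of 12 motifs searched in the promoter windows of protein-coding genes, on both strands, AP-1 was singled out after the shares were seen. TGANTCA was found in 9 of 14 windows over a gained site, or 64.3% (95% Wilson interval 38.8% to 83.7%, counting error only). It was found in 3 of 69 windows over a lost site (4.35%), in 4.62% of 11177 windows over a shared site and in 6.99% of all 21263 windows. Over windows of every kind of gene, non-coding ones included, the share was 17 of 31 over a gained site (54.8%, interval 37.8% to 70.8%), 6 of 104 over a lost site (5.77%) and 7.85% of all 32583. Windows over sites with a peak in 1 or 2 LA samples and in no control sample held the letters in 25 of 78 cases (32.1%), and windows over sites with a peak in 1 or 2 control samples and in no LA sample in 20 of 328 (6.10%). The 31 windows lay over 28 gained sites, and in 12 of these sites the letters stood inside the site. The windows held 20 matches, of which 16 lay inside the site. Over all 20 the median distance from the site centre was 54.5 bp, with letters under overlapping windows counted more than once. Some windows overlap each other or belong to the same gene. When each list was cut to its strongest 50%, gained and lost sites were called anew, so weaker peaks no longer counted. The letters then stood in 8 of 28 windows over gained sites (28.6%) and 7 of 144 over lost sites (4.86%).

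Of the other motifs, the E-box CACGTG and the C/EBP letters TTGCNNAA each stood in 3 of the 14 windows over gained sites (21.4%, interval 7.57% to 47.6%), against 7.84% and 10.2% of all windows. The KLF/SP letters GGGGCGGGG, a mark of promoters rich in C and G, stood in 13 of 69 windows over lost sites (18.8%) and in 15.4% of all, and in 0 of the 14 over gained sites, for which the interval reaches 21.5%. The cyclic AMP response element TGACGTCA stood in 0 of 14 and 1 of 69 windows, against 2.23% of all. Each of TGACG (its shorter form), AAAGGTCA (NR4A), GGGNNTTTC (NF-kB), GAGGAAGT (PU.1) and ACGTGC (hypoxia response) stood in 1 of the 14 windows, and they stood in 12, 1, 1, 4 and 3 of the 69, in the same order. Over all windows their shares were 23.6%, 1.30%, 4.26%, 3.13% and 6.53%. The letters GAAANNGAA stood in 7 of 69 windows over lost sites (10.1%, interval 5.00% to 19.5%) and in 8.15% of all. The motif TGACTCAGC of NRF2 and MAF factors, which contains the AP-1 letters, was in 0.414% of all windows and in none of the 14 or 69. A match says only that the letters are present, and sites away from promoters were not searched because no genome sequence was used here.

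**Figure D3:**
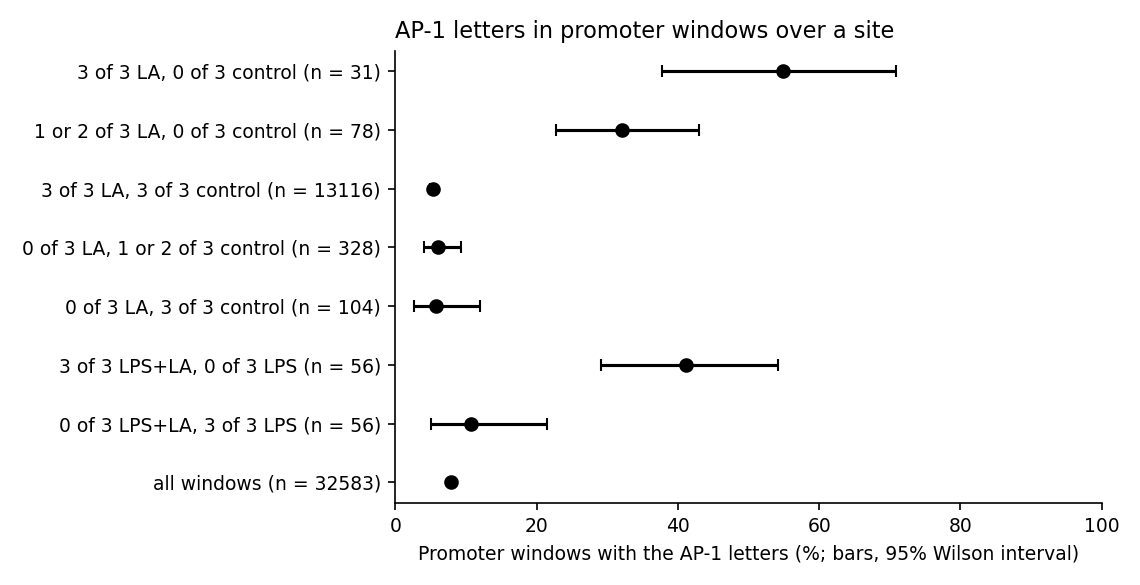
Share of RefSeq promoter windows holding TGANTCA (horizontal, %), by the number of samples with a peak at the site they overlap; n is the number of windows and bars are 95% Wilson intervals. Windows over sites seen in LA but not control, and in LPS+LA but not LPS, lie between 32.1% and 54.8%, above the 7.85% of all windows, while the reverse patterns lie between 5.77% and 10.7%.

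The LPS+LA and LPS samples, which were not used in the gained and lost patterns, held the gained sites more often where LA was present. Of the 1958 gained sites, 91.0%, 95.6% and 95.7% had a peak in the LPS+LA samples, against 71.2%, 67.2% and 62.9% in the LPS samples. The groups did not overlap, and the difference of 27.0 percentage points had the smallest p that 3 against 3 samples allow (exact permutation p = 0.1). With sites joined from LA and control peaks alone, 2031 were gained and 3103 lost, and the difference at the gained sites was 26.4 points (exact permutation p = 0.1). Over all 127890 sites the shares were 63.7%, 75.4% and 75.5% in LPS+LA and 77.7%, 72.0% and 66.8% in LPS, a difference of -0.65 points (exact permutation p = 1). Lost sites had a peak less often in LPS+LA, at 19.9%, 37.4% and 38.0%, against 55.5%, 44.5% and 37.5% in LPS, but these ranges touched (difference -14.1 points, exact permutation p = 0.2). More than 60% of gained sites thus also had a peak with LPS alone. Of the 1958, 1093 (55.8%) had one in all 3 LPS+LA and all 3 LPS samples, near the 54.0% of all sites with that pattern.

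**Figure D4:**
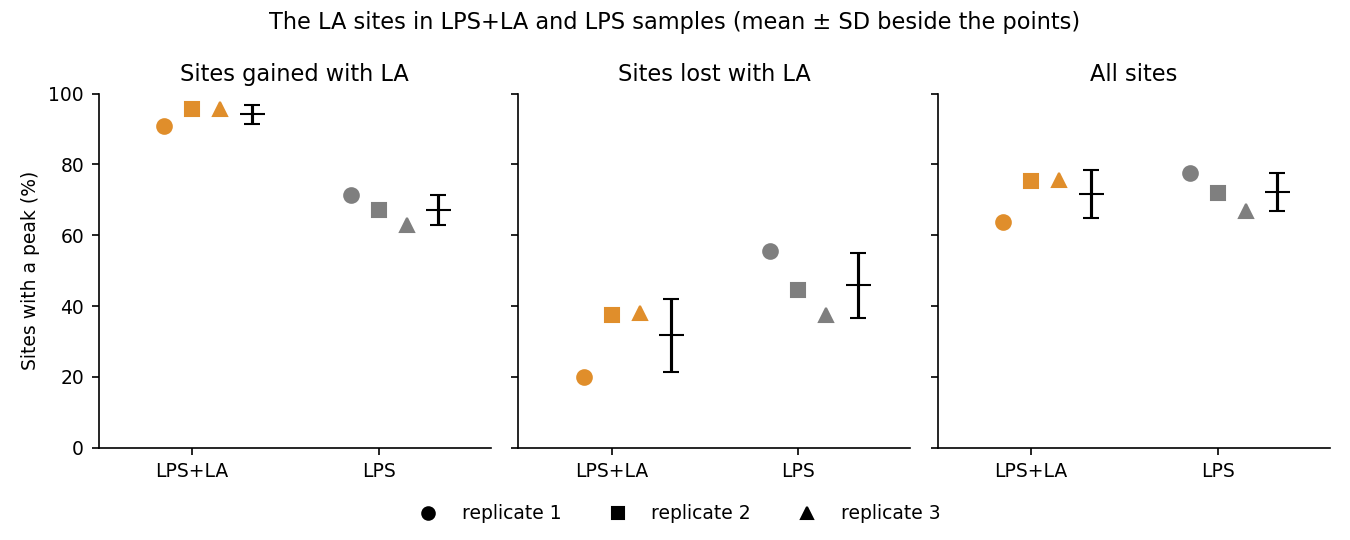
Share of sites with a peak (vertical, %) in each LPS+LA and LPS sample, for sites gained with LA, sites lost with LA and all sites; points are samples, and the bar beside them is the mean ± SD (n = 3). For gained sites the LPS+LA samples lie between 91.0% and 95.7% and the LPS samples between 62.9% and 71.2%, while for all sites the groups overlap.

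A smaller set had the same pattern without and with LPS, and both comparisons set lane 6 against lane 5. Of the gained sites 304 had a peak in all 3 LPS+LA samples and in no LPS sample. That is 15.5% of the gained sites, against 2.24% of all sites, and 10.6% of the 2869 sites with that pattern. The reverse pattern, in all LPS and no LPS+LA samples, held for 2 gained sites. Among lost sites 151 were absent from LPS+LA and present in all LPS samples (4.97% of lost sites and 5.15% of the 2932 sites with that pattern). A further 927 lost sites (30.5%) had no peak in any LPS or LPS+LA sample. Over all sites these patterns held for 2.29% and 6.93%. Promoter windows over sites found in all LPS+LA and no LPS samples held the AP-1 letters in 23 of 56 cases (41.1%, interval 29.2% to 54.1%), and all 23 were among the 55 windows whose site was not gained with LA alone. Windows over sites with the reverse pattern held them in 6 of 56 cases (10.7%, interval 5.00% to 21.5%).

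The 8 strongest gained sites, by mean rank in the 3 LA lists, lay at very different distances from the nearest gene, inside it for Gosr2 and 317084 bp away for Alkbh8. The first lay 2561 bp outside Ptbp3, which encodes a splicing regulator (chr4:59551939-59552323), and ranked at the 71.5, 72.6 and 71.4 percentile. The second lay inside Gosr2, a Golgi transport gene, 7301 bp from its start (chr11:103689023-103689753). RNA of Gosr2 stood at 126 and 114 CPM (counts scaled to the TMM-adjusted library size) in LA libraries and 87.9 and 90.1 CPM in control libraries, a log2 change of 0.43 ± 0.079 (SE; edgeR adjusted p = 0.00014). Rbbp6, with a gained site 20002 bp away that was found in 1 of 3 LPS samples, rose by 0.60 on the log2 scale, and Reep3, whose site lay 159097 bp away, fell by 0.61 (edgeR adjusted p = 6.7e-06 and 5.7e-05). The remaining strong gained sites were nearest to Alkbh8, Slc35f6, Itpr1 and Basp1. The site near Alkbh8 was at chr9:3017908-3018147.

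Of the strongest lost sites, ranked in the same way in the control lists, one lay 29711 bp from Pik3cg, the catalytic subunit of a leukocyte phosphoinositide 3-kinase (chr12:32238388-32238923), and had no peak in any LPS or LPS+LA sample. RNA of Pik3cg was 116 and 119 CPM in LA and 185 and 185 CPM in control (log2 change -0.66 ± 0.077, edgeR adjusted p = 4.6e-07). Another lay inside Fnip2, whose protein binds folliculin, 2430 bp from its start (chr3:79564932-79565249), and was present in all 3 LPS and absent from all 3 LPS+LA samples. RNA of Fnip2 was 109 and 108 CPM in LA and 326 and 324 CPM in control, a log2 change of -1.59 ± 0.084 (edgeR adjusted p = 6.6e-13). Fnip2 also held a gained site in its body, 37583 bp from the start. A lost site inside Marchf8, a membrane ubiquitin ligase gene, went with RNA at 48.5 and 43.4 CPM in LA and 83.3 and 76.4 CPM in control (log2 change -0.80, edgeR adjusted p = 6.2e-07). Fam102b rose, at 97.2 and 83.0 CPM in LA and 70.2 and 63.8 CPM in control (log2 change 0.43, edgeR adjusted p = 0.00022), although it held a strong lost site inside. The other strong lost sites lay inside Armc2 and Lrp1, and far from their nearest gene for Zfat (93687 bp) and Gm36448 (514691 bp).

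RNA from the same treatments was compared to ask whether sites and transcripts moved together. Of 12213 genes tested with edgeR's quasi-likelihood test, 2488 rose (20.4%) and 2189 fell (17.9%) with LA at a Benjamini-Hochberg adjusted p under 0.05. With library totals in place of TMM scaling the split was 1719 to 3070, and the median log2 change of all genes then shifted by -0.10. Bulk values cannot tell less RNA per cell from fewer cells of a type. Within 50 kb of its bounds, a gained site was found for 2470 of 12165 tested genes with a position. Of these 24.8% rose and 18.2% fell, with a median log2 change of 0.05, against 20.4%, 17.95% and 0.00 over all 12165. A lost site was found for 3589 genes, of which 20.6% rose and 20.1% fell, with a median of -0.01. Of the 6964 genes with neither kind, 19.2% rose and 17.1% fell. Genes with 2 gained sites rose in 92 of 309 cases (29.8%), but those with 3 or more rose in 18 of 78 (23.1%) and fell in 19 (24.4%). The 429 genes near the 304 sites gained both without and with LPS rose in 125 cases (29.1%) and fell in 79 (18.4%). The 219 genes near the 151 sites lost in both states rose in 54 (24.7%) and fell in 45 (20.5%).

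Sites inside gene bounds, counted wherever a site overlapped the gene, gave another picture. Of 830 genes with a gained site inside, 21.2% rose and 24.9% fell, and of 1248 genes with a lost site inside, 16.3% rose and 24.7% fell. These genes were long, with median lengths of 84276 bp and 80647 bp, against 23213 bp for all tested genes, and genes that fell with LA were longer than genes that rose (39489 bp and 14587 bp). The part of gene length in these shares was not tested. Read from the transcripts, a gained site lay near 24.7% of the genes that rose, 20.6% of those that fell and 18.8% of those not called. A lost site lay near 29.8% of genes that rose, 33.1% of those that fell and 28.3% of those not called. Of the 347 genes that rose by a log2 of 1 or more, 32.6% had a gained and 32.3% a lost site. Of the 255 that fell by a log2 of 1 or more, 20% had a gained and 26.7% a lost site, the second share below that of genes not called.

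Promoters under a gained site went with RNA in both directions. Olr1 stood at 3.82 and 3.71 CPM in LA and 0.283 and 0.0802 CPM in control, and rose by 4.33 ± 0.34 on the log2 scale (SE, edgeR adjusted p = 6.8e-10). Cd80 stood at 13.7 and 18.5 CPM in LA and 9.22 and 7.06 CPM in control, a log2 change of 0.98 ± 0.15 (edgeR adjusted p = 2.2e-05). In contrast Atp6v0a1 was lower with LA, at 356 and 363 CPM against 520 and 550 CPM in control (log2 change -0.57, edgeR adjusted p = 2.6e-07). Utrn and Myo7a, whose windows did not hold the AP-1 letters, fell by 0.35 and 0.43 (edgeR adjusted p = 0.0079 and 0.00038), and without control replicate 2 the adjusted p of Utrn was 0.060. Sucnr1 and Cgref1 were not among the tested genes. The sites at Olr1, Cd80, Atp6v0a1 and Utrn had a peak in all 3 LPS+LA and all 3 LPS samples.

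Promoters under a lost site went with lower RNA for Tgtp2, at 3.25 and 4.64 CPM in LA and 8.37 and 8.86 CPM in control (log2 change -1.13 ± 0.24, edgeR adjusted p = 0.0031), though without control replicate 2 the adjusted p was 0.053. Ubtf, which encodes a factor for ribosomal RNA transcription, stood at 57.0 and 64.5 CPM in LA and 104 and 110 CPM in control (log2 change -0.81, edgeR adjusted p = 1.2e-07). The site at Ubtf was absent from all LPS+LA and present in all LPS samples. At Tgtp2 the site had a peak in all 3 LPS+LA and all 3 LPS samples. Against the direction of the site, RNA rose for the kinase gene Pim1 (log2 change 0.64), for Nfkbid, which encodes a nuclear inhibitor of the NF-kB family (1.20), and for the interferon-induced membrane protein gene Ifitm3 (0.48), with edgeR adjusted p of 1.9e-06, 2.5e-06 and 0.00021. Over all 96 tested genes with a lost site at the start, 25 rose (26.0%) and 11 fell (11.5%), and of 49 with a gained site at the start, 14 rose (28.6%) and 11 fell (22.4%), beside 20.4% and 17.95% of all.

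Among the 10 genes with the largest rises that had at least 10 CPM and a gained site within 50 kb, most sites were distant. The heat shock gene Hspa1a stood at 132 and 480 CPM in LA and 1.37 and 1.52 CPM in control (log2 change 7.71 ± 0.92, edgeR adjusted p = 0.0017). It shared a gained site, 30320 bp away, with its near-identical copy Hspa1b (6.40), and counts of the pair cannot be told apart with certainty. The AP-1 gene Fosb stood at 73.5 and 62.1 CPM in LA and 1.25 and 1.88 CPM in control (log2 change 5.43). Its gained site, 31955 bp away, had no peak in any LPS+LA or LPS sample. Spsb1, which encodes an adaptor of a ubiquitin ligase, had a gained site inside the gene 1057 bp from its start, a second 48455 bp away, and a lost site inside. It stood at 106 and 84.4 CPM in LA and 7.24 and 6.21 CPM in control (log2 change 3.82). Others were the phosphatase gene Dusp5 (3.92), the cytokine signal inhibitor Cish (3.58), the histone genes H2bc4 (2.85) and H1f2 (2.72), which shared a site, and the growth arrest gene Gadd45b (2.65). Each of these passed edgeR's adjusted threshold.

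The 10 largest falls with a lost site nearby included 2 receptors of lipid mediators. Lpar5, a receptor for lysophosphatidic acid, stood at 9.23 and 10.6 CPM in LA and 37.7 and 41.4 CPM in control (log2 change -2.00 ± 0.17, edgeR adjusted p = 5.5e-09), and its lost site lay 24809 bp away. That site was weak, at the 16.4, 1.24 and 1.11 percentile of the control replicates. It had a peak in 2 of 3 LPS and 0 of 3 LPS+LA samples. Ptafr, the receptor for platelet-activating factor, stood at 31.2 and 35.8 CPM in LA and 118 and 127 CPM in control (log2 change -1.87, edgeR adjusted p = 2.6e-14). Ptafr had a gained site as well, 3498 bp outside the gene, nearer than the lost site at 37302 bp. Tfap4, a transcription factor gene, stood at 2.94 and 3.53 CPM in LA and 10.4 and 12.9 CPM in control (log2 change -1.85). The rest were Fnip2, 9930111J21Rik1, 9930111J21Rik2, Gm5431, Zfp111, Impact and Invs.

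Near the 304 sites gained with LA both without and with LPS, the kinase gene Nuak2, of the AMPK family, stood at 71.5 and 70.7 CPM in LA and 15.4 and 15.6 CPM in control (log2 change 2.20). Irf2bpl rose by 2.02, the serum- and glucocorticoid-regulated kinase gene Sgk1, with 2 such sites, by 1.74, the transcription factor gene Runx2 by 1.69 and Cd14, the LPS co-receptor, by 1.37. The phosphodiesterase gene Pde4b, whose enzyme breaks down cyclic AMP, rose by 1.33 and had such a site inside the gene, 53185 bp from its start. Near the 151 sites lost in both states, Slc4a2, an anion exchanger gene, fell by 1.18, the chemokine gene Ccl3 by 1.05 and the interferon-inducible GTPase gene Irgm1 by 0.73. Each of these passed edgeR's adjusted threshold, but Ccl3 stood at 20.5 and 40.4 CPM in LA and 63.5 and 62.7 CPM in control. Its adjusted p was 0.053 with the replicate block, 0.12 without control replicate 1 and 0.11 without control replicate 2.

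Of a panel of 42 genes of early, inflammatory, metabolic and lineage responses, 28 rose, and 8 of these had a gained site within 50 kb while 14 had neither kind. Over all tested genes, 24.7% of those that rose had a gained site, and 6964 of 12165 had neither kind, so the panel's counts lay near the background. Of the 23 that rose and had a start in the promoter table, 22 had a peak at the start in all 6 samples. The nuclear receptor genes Nr4a1 (180 and 157 CPM in LA, 3.44 and 3.33 CPM in control), Nr4a2 and Nr4a3 rose by 5.64, 3.84 and 4.47 on the log2 scale, and their starts had a peak in all LA and all control samples. The same held for Fos (2.39), Junb (2.35), the vascular growth factor gene Vegfa (1.48), the glucose-responsive gene Txnip (2.10) and Klf4 (2.11), none of which had a gained or lost site within 50 kb; neither did Nr4a2 and Nr4a3, while Nr4a1 had 1 lost site 5583 bp outside the gene. Thbs1, thrombospondin 1, rose by 3.36 with neither. Tnf stood at 69.4 and 100 CPM in LA and 29.3 and 29.4 CPM in control (log2 change 1.53 ± 0.23, edgeR adjusted p = 0.0030), while 3 lost sites lay near it, one of them inside the gene 725 bp from its start.

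Gene lists were described by how many members had a site within 50 kb, beside 14.2% of 21887 protein-coding genes with a gained and 22.7% with a lost site. Among the 12165 genes tested in RNA, which are nearer to what most lists hold, the shares were 20.3% and 29.5%. Of these 12165 genes 20.4% rose and 17.95% fell, the background for the RNA counts of each list. Neighbouring members can share a site. With equal numbers of peaks the shares of all protein-coding genes were 17.7% and 14.8%, so each list's counts with equal numbers of peaks are given in brackets. The type I interferon response had a gained site at 1 and a lost site at 12 of 31 genes (2 and 6). Its RNA fell for 10 and rose for 3 of 31, with a median log2 change of -0.15. Of the 12 with a lost site, 2 fell, among them Stat2, a signal transducer of the interferon receptor (log2 change -0.47). Against this, Irf1, an interferon-regulated transcription factor gene with 2 lost sites, rose by 0.36, and Dhx58, the gene of an RNA sensor, with 1, by 0.44 (edgeR adjusted p = 0.00043 and 0.00035). Inflammatory cytokines had a gained site at 4 and a lost site at 11 of 21 genes (4 and 10), while 9 of 20 tested rose and 0 fell. Osm, with 1 site of each kind, rose by 2.02, and Csf1, the macrophage growth factor gene, with 2 gained sites and none lost, rose by 0.97.

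Heat shock and integrated stress response genes had the opposite order, with a gained site at 7 and a lost site at 2 of 18 (7 and 2). Of these 18, 8 rose and 4 fell, beside 20.4% and 17.95% of all 12165 tested genes. Of the 7 with a gained site 4 rose, among them the co-chaperone gene Bag3 and Hspe1 (0.47). Bag3 stood at 196 and 217 CPM in LA and 91.1 and 99.6 CPM in control (log2 change 1.12). Dnajb1, Hspd1 and Ppp1r15a, also with a gained site, were not called (log2 change -0.02, 0.02 and 0.65). Among the genes that fell were Atf4 (-1.02), with neither kind of site, and Chac1 (-1.38), with a lost site. Glycolysis and hypoxia genes had a gained site at 7 and a lost site at 4 of 26 (11 and 3), and 15 rose and 3 fell. Of the 7 with a gained site 4 rose, a share near the 15 of 26 of the whole list. Hif1a, the hypoxia factor gene, had 2 gained sites and rose by 0.45, and Pfkfb3, Tpi1 and Aldoa, enzymes of glycolysis, rose by 0.69, 0.35 and 0.37. Aldoa had a lost site as well. Slc2a1, Pfkl and Pfkfb4, also with a gained site, were not called (log2 change -0.06, -0.07 and -0.19). Receptors of lipids and nucleotides had a gained site at 9 and a lost site at 6 of 20 (7 and 3), with 6 rising and 7 falling. Here gained sites went with RNA in both directions, since Ptger4, a prostaglandin E2 receptor gene, rose by 1.04 while P2ry13 and P2rx7, receptors of extracellular nucleotides, fell by 1.80 and 1.19. Lysosome and autophagy genes had a gained site at 12 and a lost site at 11 of 25 (13 and 9), with 5 rising and 8 falling.

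In most of the other lists the order turned with equal numbers of peaks or the counts were near all genes. Immediate early and AP-1 genes had a gained site at 9 and a lost site at 11 of 24 (8 and 6), and 21 of 24 rose, with a median log2 change of 1.61. Fosl2 (223 and 179 CPM in LA, 33.2 and 37.6 CPM in control, log2 change 2.51) had a gained site 2573 bp from its bounds that no LPS+LA or LPS sample held. Targets of cyclic AMP and CREB had 7 and 12 of 23 (10 and 8), and 17 of 21 tested rose and 0 fell. Genes of NF-kB signalling had 6 and 8 of 26 (8 and 6), with 22 rising and 3 falling. Zfp36, an mRNA decay factor gene, had a gained site and rose by 2.26, and Nfkbia, which encodes the main NF-kB inhibitor, had a lost site and rose by 1.33. Chemokines had 4 and 8 of 16 (6 and 5), and macrophage identity genes 10 and 11 of 24 (11 and 10), among them Irf8 with 1 site of each kind (log2 change 0.52) and Mrc1, the mannose receptor gene, with 1 gained and 2 lost sites (-0.65). Proton and lactate sensing genes had 1 and 4 of 15 (2 and 2), and cell cycle genes 2 and 7 of 21 (4 and 5). Lists of other cell types had a gained site at 1 gene each of 14 lymphocyte, 15 granulocyte, mast and erythroid and 12 fibroblast, endothelial and neuron genes, and a lost site at 4, 5 and 2 (1 and 3, 2 and 5, and 1 and 1). The cell cycle, lymphocyte and granulocyte, mast and erythroid lists kept their order. With equal numbers of peaks 23.8%, 21.4% and 33.3% of their genes had a lost site, against 14.8% of all protein-coding genes. These shares rest on 5 of 21, 3 of 14 and 5 of 15 genes.

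**Figure D5:**
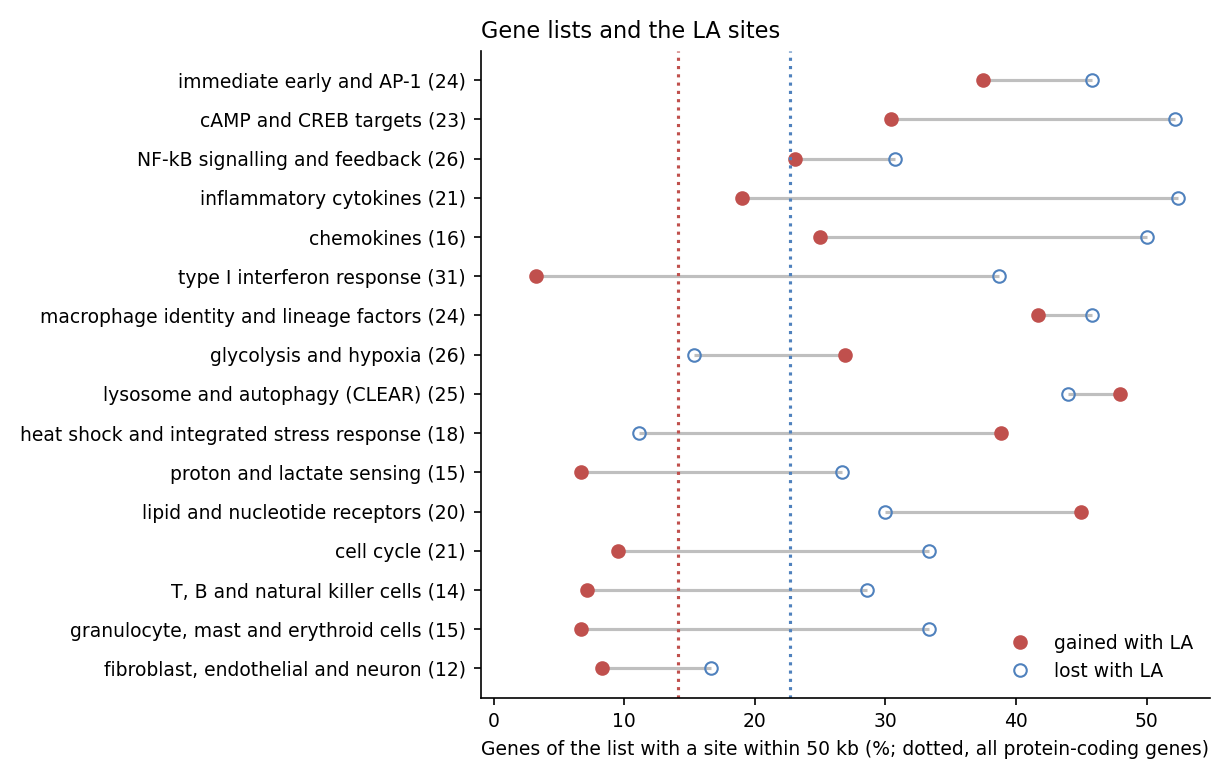
Share of genes with a gained site (filled) or a lost site (open) within 50 kb (horizontal, %) for each gene list, with the number of genes in brackets; dotted lines are the shares of all protein-coding genes, 14.2% for gained and 22.7% for lost sites. Heat shock, glycolysis, lysosome and receptor lists have more genes with gained than lost sites, and the interferon list has 1 gene with a gained and 12 with a lost site.

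The genes with most gained sites within 50 kb were Cux1 and Nav2, with 6 each, and Hdac9, a histone deacetylase gene, with 5. They had 67, 83 and 56 sites of any kind in that range, so gained sites were a small part. In Cux1, which encodes a homeobox factor, 4 gained sites lay inside the gene and 2 outside, 2 were found in all LPS+LA and no LPS samples, and 2 lost sites lay inside, one of them 223 bp from the start. Cux1 stood at 362 and 358 CPM in LA and 301 and 327 CPM in control (log2 change 0.19, edgeR adjusted p = 0.022), and Nav2 at 131 and 125 against 105 and 111 CPM (0.25, edgeR adjusted p = 0.010). Both missed the threshold with total-count scaling (edgeR adjusted p = 0.28 and 0.13), without LA replicate 1 (0.071 and 0.063) and without control replicate 1 (0.20 and 0.093). Hdac9 was not called (log2 change 0.03, edgeR adjusted p = 0.86). Most lost sites were found for Trak1, a transport adaptor gene, with 6 of 44 sites, 2 of them within 1000 bp of a start, and for Atxn1 and Itga9, with 5 of 61 and 5 of 39. None of the 3 was called in RNA, with log2 changes of -0.04, 0.00 and -0.24 (edgeR adjusted p = 0.75, 0.99 and 0.19).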

How the data were processed

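For ATAC-seq the authors deposited a peak list per sample with a score per peak; the scale of the score is not named, and it served only to rank peaks within a list. Peaks were called per sample with MACS2 on paired-end reads, per the file headers; BWA 0.5.9, Picard, MACS2 2.0.10 and mm10 (GRCm38) are named in the submitters' processing notes. The sources used here do not say whether read ends were shifted for the enzyme. For RNA the authors deposited expected counts of 16059 genes per library, with HISAT, Bowtie2 and GRCm38.p6 named in the submitters' processing notes. Neither the counting tool's settings nor its use of strand is stated in them.

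Peaks were joined where they shared 1 bp. Lists were compared by exact permutation tests (smallest p 0.1) and by the Jaccard index (bedtools 2.31.1). Expected counts, of which 6.07% were not whole, were rounded, kept by filterByExpr (minimum count 10, total 15), scaled by TMM and tested with edgeR 4.0.16 (robust quasi-likelihood) in 1 fit to all 10 libraries, two-sided, with Benjamini-Hochberg adjustment at 0.05; library totals ran from 18668648 to 20219888 counts. DESeq2 1.42.0 was an alternative. CPM use TMM-adjusted library sizes. Both steps were tested on simulated data. Gene bounds and promoter sequences are RefSeq's, GRCm38.p6; 12165 of 12213 tested genes had a position, and chromosomes without promoter entries were left out of distances to starts. The deposited files hold 0 columns of samples outside the study.

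Named sites were the 8 gained and 8 lost with the highest mean rank; named genes were the 10 largest rises with a gained and 10 largest falls with a lost site within 50 kb and at least 10 CPM, the 3 genes with most sites of a kind, and a panel; list members and promoters outside this rule were chosen after their values were seen. Members, lists, motifs and tests were chosen with earlier results of these data known. A gene that this rule names is not reported here.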

Additional observations from a re-analysis of the deposited data

How the results depend on the processing

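Differences in peaks, covered bases, width, share at gene starts and the shares of gained and lost sites in LPS+LA minus LPS kept their sign in every alternative that was run and gave a value; an equal number of peaks sets the difference in peaks to 0 by construction. Without 1 replicate, the difference ran from -7738 to -4616 peaks, -7.75 to -5.21 Mb, -49 to -36 bp, 0.570 to 1.02 points at starts, 24.3 to 29.0 points for gained and -18.3 to -8.16 points for lost sites. Gained sites then numbered 2124 to 2534 and lost sites 3819 to 5323. With a peak in at least 2 of 3 samples, 3549 sites were gained and 6989 lost; with equal numbers of peaks 1869 were lost; and where a peak had to cover 50% of the site, an alternative added after seeing the data, 5082 were lost. The planned overlap of 50% of the site or the peak changed nothing by construction.

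Genes that rose numbered 1836 to 2226 and genes that fell 1642 to 1922 without 1 library; total-count scaling gave 1719 and 3070. The share of genes near gained sites that rose was 17.6% with total-count scaling, 20.8% without a filter, 22.8% with DESeq2 and 18.6% to 22.9% without 1 library. The share near lost sites that fell was 28.2%, 17.3%, 18.5% and 15.2% to 17.1% in the same order, 22.2% within 10 kb and 18.8% within 100 kb. Both stayed above the share of all tested genes in that setting, by 3.42 to 5.55 points for gained and 0.890 to 4.24 points for lost sites. AP-1 shares were added after seeing the data. Without 1 replicate they ran from 50% to 57.6% over gained and 5.17% to 7.07% over lost sites. Sites called anew from the upper 50% of each list gave 28.6% over gained sites, and the cause was not tested. Of 75 genes whose RNA change was recomputed, 7 (Utrn, Tgtp2, Jun, Ccl3, Atf3, Cux1 and Nav2) lost the call in some alternative and none changed sign.

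The replicate numbers did not pair the samples: deviations of same-numbered LA and control samples correlated at 0.018 or less, and -0.043 in RNA. With the replicate block the differences stayed at -5683 peaks, -6.45 Mb and 27.0 points (exact sign-flip permutation p = 0.5, 0.25 and 0.25, where 0.25 is the smallest possible), and 2487 genes rose and 2176 fell. Motif shares around site centres could not be run, because no genome sequence was used here. The lists hold no depth, so a missing peak does not show closed chromatin.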

Other observations

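Some microRNA genes lay at changed sites. Of the RefSeq hairpins, Mir7008 lay under a gained site, and Mir29c and Mir9-2 under a lost site. Within 1000 bp of a hairpin, Mir686 also had a gained site. Lost sites lay within that distance of Mir29b-2, a neighbour of Mir29c, and of Mir34c, Mir1905, Mir7660, Mir7048, Mir6915 and Mir5617. These sites were listed after their values were seen, and mature microRNA levels were not analysed here.

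Some macrophage genes that the text above does not describe had changed sites of their own. Spi1, the gene of PU.1, had a lost site inside its bounds that was present in all 3 LPS+LA and absent from all 3 LPS samples. This was a weak site, at the 12.5, 0.066 and 21.4 percentile of the control replicates 1, 2 and 3. Gpr65, a receptor that senses protons, had a lost site 983 bp from its start that was present in all 3 LPS+LA and all 3 LPS samples. Il10, an anti-inflammatory cytokine gene, had a lost site that no LPS+LA or LPS sample held. It lay across the lower bound of the gene, partly outside it (site chr1:131019477-131020025, gene from 131019845). Nos2, the inducible nitric oxide synthase gene, had a gained site 31247 bp away that all 3 LPS+LA and all 3 LPS samples held.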
